A study of Drosophila melanogaster with 17 samples.

Results

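The response of the fat body to a high-sugar diet was examined in wild-type female larvae of Drosophila melanogaster, with the weight on genes that moved the same way in 2 separate sets of libraries. The members are 12 of the 17 RNA-seq libraries of the study, chosen by genotype and diet. Of these 6 came from larvae fed 0.15 M sucrose (control diet) and 6 from larvae fed 0.7 M sucrose (high sugar). Both this choice and the gene lists used below were made with earlier results of these data known. Animals grew at 25 C on semi-defined food from hatching and were collected as wandering larvae of the third instar. All of them, controls included, had the VDRC w1118 background with cgGAL4, a driver active in fat body and also known from hemocytes, and UAS-Dcr2, a transgene for Dicer-2. The wild type is therefore a driver and transgene line, not an unmodified stock. The other 5 libraries, 3 on control diet and 2 on high sugar, carried UAS-ChREBPi(52606) in addition, an RNA interference construct against the sugar-responsive transcription factor listed as dmondo (CG18362, Mondo). They are used below only as libraries that played no part in choosing genes. The labels call the replicates biological but do not say whether tissues were pooled, so p-values measure the spread between these samples.

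The larval fat body combines tasks that liver and adipose tissue share in mammals. It turns dietary sugar into glycogen, circulating trehalose and stored triglyceride, and it secretes most of the proteins of the blood. As a secretory organ it depends on the endoplasmic reticulum (ER), where chaperones fold new proteins, and as a detoxifying organ it expresses many cytochrome P450 enzymes and glutathione transferases.

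Replicates 1 to 3 of each diet carried 1 barcode per group (set 1) and replicates 4 to 6 a barcode each (set 2), and the labels give no run or date. Values are taken as FPKM, fragments scaled by transcript length and by library, so levels are per length. Read depth is unknown. Column totals lay between 44732 and 53148 in set 1, and between 29779 and 33181 on control diet and 40140 and 45722 on high sugar in set 2. Of 14659 listed genes 6500 to 8360 were above 0 in a library. All 10 fat body markers (larval serum proteins and others) were measured, with summed levels of 5372 to 12434 FPKM. Markers of other organs were present too. The summed salivary gland markers ran from 2658 to 7052 FPKM in set 1, while in set 2 they were 39.0 to 739 on control diet and 6.40 to 20.2 on high sugar (exact permutation within sets, p = 0.175, adjusted 0.292). Midgut markers in set 2 summed to 7.16 to 118 FPKM on control diet and 3.52 to 4.59 on high sugar, and fat body markers to 5372 to 7259 and 10647 to 12434. In set 1 the midgut sums were 16.3 to 159 and 24.9 to 177. Fat body sums there were 8505 to 9830 and 7035 to 8575. For these 3 of the 10 marker lists the diets were apart in set 2 but not in set 1. Cuticle sums were also apart in set 2 alone, at 192 to 249 and 264 to 308. Muscle sums were apart in set 1 alone, at 14.5 to 22.3 FPKM on control diet and 7.24 to 10.7 on high sugar. So were trachea and disc sums, at 1.34 to 1.58 and 1.74 to 2.07. Summed hemocyte (blood cell) markers were 61.9 to 334 FPKM on control diet and 44.9 to 83.4 on high sugar. Their difference was -0.81 on the log2 scale (2-sided exact permutation of diets within sets, p = 0.045, adjusted over 10 marker lists 0.225). By set, they were apart in set 1 (72.9 to 334 and 44.9 to 71.4) but overlapped in set 2 (61.9 to 104 and 46.6 to 83.4). Summed Malpighian tubule markers fell by 1.42 on the log2 scale (exact permutation p = 0.015, adjusted 0.15, with 0.005 the smallest p possible). They overlapped between diets in set 1 (10.2 to 14.6 and 7.14 to 13.6) but not in set 2 (14.9 to 22.9 and 2.39 to 2.59). Only 1 of the 6 members passed the filter used below. It averaged 15.3 FPKM on control diet, most of the sum, and changed by -0.41 in set 1 (not called) and -2.51 in set 2 (called). The part of these organs in the results below was not tested, and in whole tissue fewer cells of a type and less RNA per cell cannot be told apart.

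The question was which genes answer the diet in both sets. Tests were run with limma on log2(FPKM + 1) over the 2297 genes whose wild-type mean reached 1 FPKM, with a separate diet change in each set. A gene is called consistent when both changes have the same sign and the larger of its 2 p-values passes an adjusted threshold of 0.05. By this rule 14 genes rose (0.609% of those tested) and 12 fell (0.522%), together 26 (1.13%). A further 23 rose and 25 fell when each set was adjusted by itself, which makes 37 genes higher (1.61%) and 37 lower (1.61%) by this wider rule, together 74 (3.22%). The sets differed widely: 209 genes were called in set 1, 59 higher (2.57%) and 150 lower (6.53%), and 868 in set 2, 578 higher (25.2%) and 290 lower (12.6%). The diet change itself differed between the sets for 592 genes (25.8%). Over all tested genes the median log2 change was -0.03 in set 1 and 0.11 in set 2, or 0.00 and 0.04 with libraries scaled to a common median. All 26 consistent genes stayed called under that scaling and kept their signs. In all 26 the libraries of the 2 diets did not overlap within either set. Choosing genes by these same values favours such separation, so it is no further support. It held for 4.96% of tested genes upward and 3.7% downward.

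**Figure D1:**
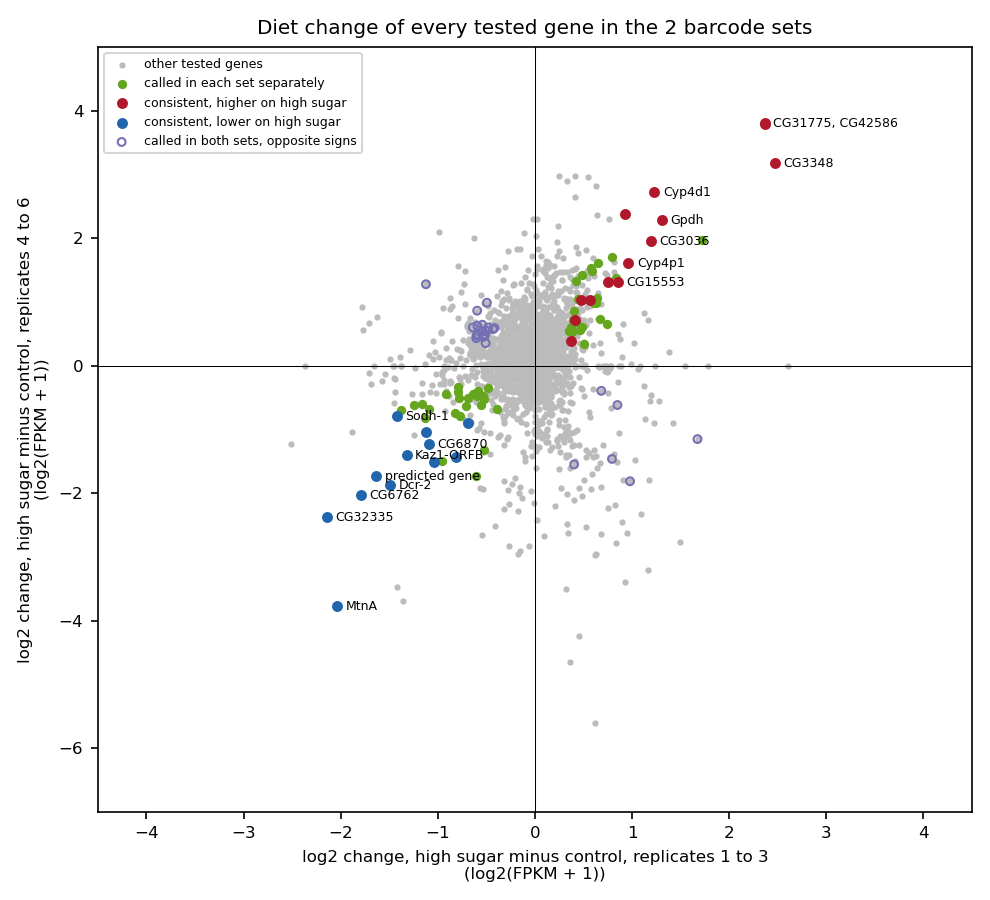
Log2 change of each tested gene from control to high sugar (log2(FPKM + 1)) in replicates 1 to 3 (horizontal) and replicates 4 to 6 (vertical), 1 point per gene. The 14 consistent rises lie in the upper right and the 12 falls in the lower left, while most of the cloud shows little relation between the sets; 24 genes called in both sets with opposite signs are open circles.

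The largest rises belonged to genes of unknown role. CG3348 stood at 3.30, 3.50 and 4.16 FPKM in control replicates 1 to 3 and at 30.6, 28.8 and 17 on high sugar. In replicates 4 to 6 it went from 1.93, 1.68 and 1.05 to 27.3, 18.1 and 21. Every high-sugar library was therefore at least as high as 17 FPKM and no control library exceeded 4.16. The log2 changes were 2.47 ± 0.23 and 3.18 ± 0.23 (SE) in sets 1 and 2 (limma adjusted p of the larger, 0.000204). CG3348 overlaps the row CG3373, and without a stated strand setting reads of the 2 cannot be told apart.

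CG31775 was the most abundant consistent gene. Control libraries of set 1 had 127, 208 and 131 FPKM against 700, 932 and 741 on high sugar, and those of set 2 had 44.7, 42.4 and 51.1 against 716, 661 and 591. The diets did not overlap, and as a ratio the high-sugar levels of the sets were closer to each other than their control levels. The ratio of means was 5.09 in set 1 and 14.3 in set 2, and the log2 changes 2.37 ± 0.19 and 3.80 ± 0.19 differed by 1.44. CG42586 gave changes of 2.37 and 3.80 as well, but its value kept a ratio of 1.15 to that of CG31775 in all 17 libraries, so the pair is 1 observation. CG5773 rose from 32.5, 33.9 and 34.7 FPKM to 60.3, 76.6 and 58.7 in set 1 and from 10.8, 10.7 and 13.3 to 72.9, 60.2 and 59.6 in set 2. Here the high-sugar libraries of both sets reached like levels from unlike controls.

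Gpdh (CG9042, Gpdh1) is the cytosolic glycerol-3-phosphate dehydrogenase, which makes the glycerol backbone of triglyceride from a glycolytic intermediate and reoxidises NADH. Its values were 1.17, 1.83 and 1.41 FPKM on control diet and 7.06, 6.07 and 2.97 on high sugar in set 1, and 1.11, 0.938 and 1.04 against 7.99, 9.07 and 9.71 in set 2. Replicate 3 was the lowest of the high-sugar libraries and still lay above all controls. The log2 changes were 1.31 ± 0.22 and 2.29 ± 0.22 (adjusted p = 0.0129). Of the 11 tested genes of fat synthesis and lipid droplets, 8 were higher in both sets at any size of change (72.7%, against 28.7% of all tested genes). Lower in both sets was 1 of them (9.09%, against 22.6%), and the medians of the list were 0.28 and 0.87. Acetyl-CoA synthetase (AcCoAS, changes of 0.84 and 1.37) and the droplet coat protein Lsd-1 (0.59 and 1.48) rose in each set taken by itself, whereas desat1, the fatty acid desaturase, had changes of 0.76 and 2.30 and was called in set 2 alone. Among 10 glycolytic genes pyruvate kinase (PyK) rose in each set, by 0.37 and 0.61. Of these 10 genes 6 had positive values in both sets (60%, against 28.7% of all tested genes) and none negative ones (against 22.6%).

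Of the 14 rises 3 were cytochrome P450s, heme enzymes that oxidise lipids, hormones and foreign compounds. They were 3 of 27 tested P450s, where 0.609% of all tested genes rose consistently. Cyp4d1 (CG3656) was at 5.48, 6.32 and 8.98 FPKM and at 17.4, 17 and 17.5 on high sugar in set 1, and at 7.64, 5.52 and 4.83 against 48.1, 53.8 and 34.5 in set 2. The 3 high-sugar libraries of set 1 were nearly equal and lay below all those of set 2. Cyp4p1 (CG10842) changed by 0.96 ± 0.12 and 1.61 ± 0.12 (adjusted p = 0.00158) and Cyp310a1 (CG10391) by 0.47 ± 0.08 and 1.04 ± 0.08 (adjusted p = 0.0129). Cyp4e3, from 0.0814 to 0.346 FPKM in control libraries and 0.939 to 6.00 on high sugar, rose in each set by itself. At any size of change, the shares of the whole family with the same sign in both sets were near those of all tested genes. Of 27 tested P450s 9 were higher in both sets (33.3%, against 28.7% of all) and 7 lower in both (25.9%, against 22.6%). In set 1, 4 of the 27 were called higher and 9 lower, against 2.57% and 6.53% of all tested genes. In set 2, 14 were called higher and 2 lower, against 25.2% and 12.6%. Cyp6d5 and Cyp12a4 fell in each set. Cyp6d5 went from 44.5 to 52.5 FPKM down to 16.1 to 18.9 in set 1 and from 18.1 to 33.1 down to 13.7 to 16.0 in set 2. Cyp12e1 was called lower in set 1 and higher in set 2, by -0.54 and 0.45.

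Protein folding in the ER supplied 2 consistent rises. Crc (CG9429), calreticulin, a calcium-binding chaperone of glycoproteins, measured 9.20, 10.3 and 12.2 FPKM on control diet and 18.2, 17 and 20.2 on high sugar in set 1, and 12.5, 14.3 and 13.7 against 33.3, 37.9 and 33.3 in set 2. The libraries separated by diet in both sets, with log2 changes of 0.76 ± 0.12 and 1.3 ± 0.12 (adjusted p = 0.0113, or 0.209 and not called when all 17 libraries set the spread). CG2918 (Grp170), a large chaperone of the Hsp70 family that acts on the ER Hsp70 BiP, changed by 0.42 ± 0.07 and 0.72 ± 0.07 (adjusted p = 0.0167). Its level was low, at most 2.43 FPKM, and the log2(FPKM + 1) scale understates changes of such genes. BiP itself, listed as Hsc70-3, rose in each set by itself, from 13.9 to 17 FPKM up to 19.8 to 29.4 in set 1 and from 11.4 to 13.6 up to 25.0 to 30.0 in set 2. Gp93, the ER form of Hsp90, rose by 0.79 and 1.70, and CG4164 (shv), a DnaJ-type co-chaperone, by 0.39 and 0.72.

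Genes of the wider secretory route had mostly positive values. Of 14 tested ER chaperones and folding factors (a list with Crc, Hsc70-3 and Gp93 but not CG2918 or CG4164) 12 were higher in both sets (85.7%, against 28.7% of all tested genes), none was lower in both, and the medians were 0.21 and 0.78. Of 21 genes of ER translocation and glycosylation 17 were higher in both sets (81%) and none lower. In set 2 there were 18 of the 21 called higher (25.2% of all tested genes), and in set 1 none (2.57% of all). Sec61gamma, a subunit of the translocation channel, had values of 0.38 and 1.36. Of 14 coat proteins of COPI and COPII transport vesicles 12 were higher in both sets (85.7%) and none lower, with 11 called higher in set 2 and none in set 1, against the same shares of all genes. The same counts under the other scalings of the libraries were 12 of 14, 18 to 20 of 21 and 11 to 12 of 14, again with none lower. Cytosolic chaperones and heat shock proteins gave 2 higher and 2 lower of 13 (15.4% each, against 28.7% and 22.6% of all tested genes). The difference between these lists was not tested.

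The remaining consistent rises were CG3036 (1.20 ± 0.17 and 1.95 ± 0.17), CG15553 (0.86 ± 0.18 and 1.31 ± 0.18), CG17124 (0.56 ± 0.10 and 1.03 ± 0.10) and CG15019 (0.37 ± 0.07 and 0.38 ± 0.07). They were low, with at most 5.34 FPKM in a library. CG15019 was the only rise whose diets overlapped once the 2 sets were put together. CG3036, Cyp4p1, Cyp310a1 and CG15019 overlap other listed genes.

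**Figure D2:**
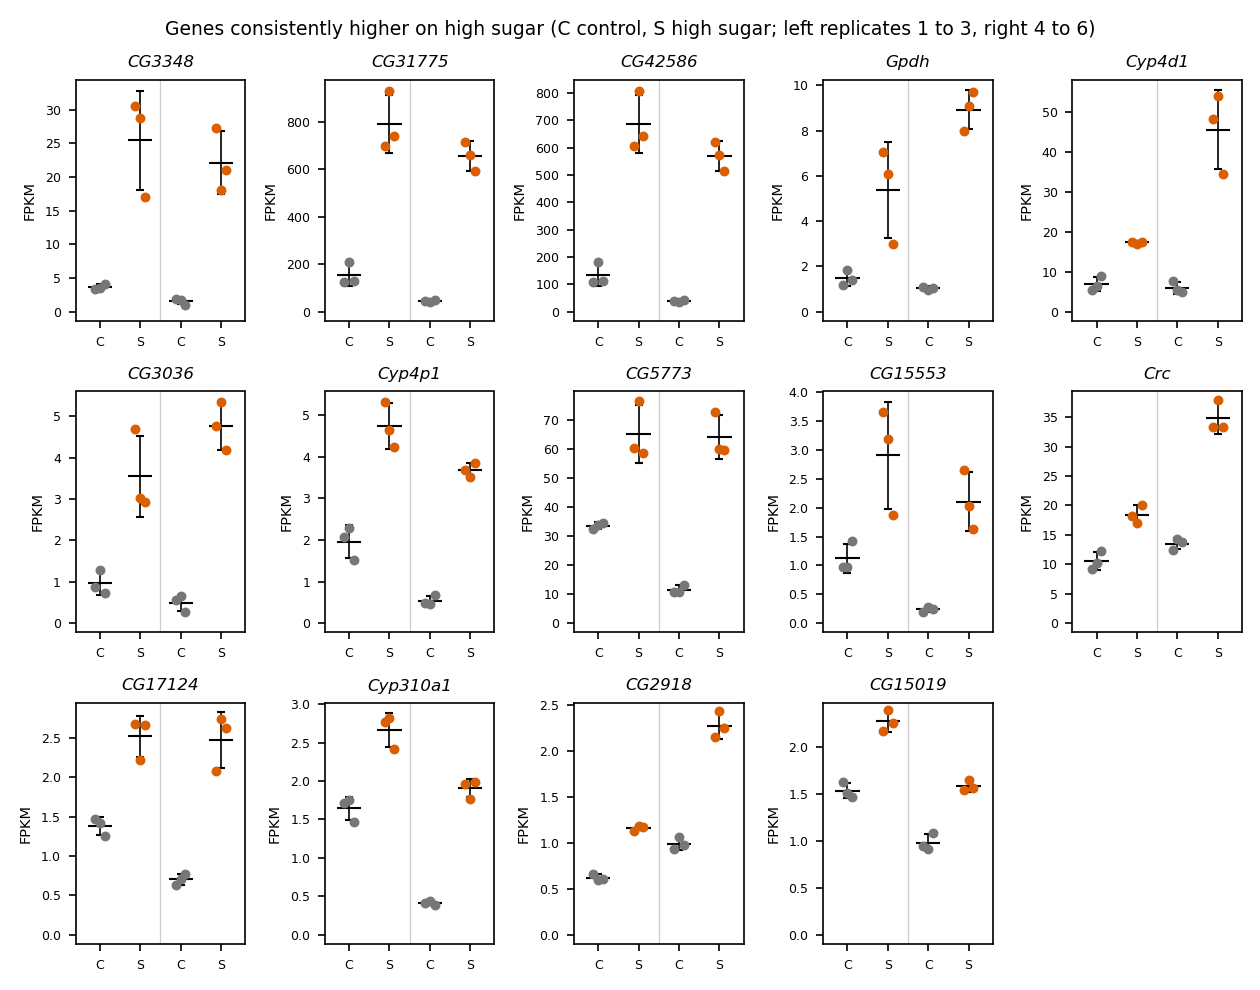
Values in FPKM of the 14 consistent rises in each library, with the mean (line) and SD (bar) of the 3 libraries per diet and set; C is control and S high sugar, replicates 1 to 3 left and 4 to 6 right of the grey line. For CG31775, CG5773 and CG3348 the high-sugar libraries of both sets are at like levels, while Cyp4d1 and Crc go higher in replicates 4 to 6.

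Each of the 12 falls is given in turn, first 2 genes of metal and peroxide handling. MtnA (CG9470), a metallothionein that binds copper and cadmium ions, was at 58.9, 36.2 and 28.4 FPKM on control diet and 8.08, 12.1 and 6.98 on high sugar in set 1, and at 31.9, 35.5 and 37.4 against 1.57, 1.75 and 1.54 in set 2. Control replicate 1 stood above the rest, and every high-sugar library lay below every control. The log2 changes were -2.04 ± 0.24 and -3.77 ± 0.24 (adjusted p = 0.00158). The copper importer Ctr1B fell in each set by itself, by 0.79 and 0.41 on the log2 scale. The 2 ferritin subunits, which store iron, had values between -0.01 and 0.14 and were not called. Of 8 tested metal genes 1 was consistently lower (MtnA, against 0.522% of all tested genes). By the wider rule 2 were lower (against 1.61%), with none higher by either rule.

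CG6762 (Srx) encodes sulfiredoxin, which restores peroxiredoxins that have been over-oxidised by peroxide. It had 132, 119 and 115 FPKM on control diet and 28.3, 36.4 and 39.9 on high sugar in set 1, and 67.2, 51.2 and 61.6 against 17.3, 12.9 and 12 in set 2. Levels in set 2 were lower on both diets, but the change was alike, -1.79 ± 0.17 and -2.02 ± 0.17 (adjusted p = 0.000204). Catalase (Cat), which breaks down hydrogen peroxide, fell in each set by itself, from 36.9 to 41.6 FPKM down to 21.7 to 23.3 in set 1 and from 30.7 to 37.6 down to 24.4 to 30.2 in set 2. The other 11 tested antioxidant genes did not pass in both sets. Of all 13 there were 5 higher and 5 lower in both sets at any size of change (38.5% each, against 28.7% and 22.6% of all tested genes). The peroxiredoxin Jafrac1, for example, had positive values of 0.54 and 1.18.

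GstD3 (CG4381) was the only glutathione transferase among the consistent genes. In set 1 it went from 3.72, 3.56 and 3.85 FPKM to 0.993, 1.69 and 1.25, and in set 2 from 3.19, 2.22 and 2.27 to 0.424, 0 and 0.354. One library was listed at 0, and the log2 changes were -1.04 ± 0.16 and -1.50 ± 0.16 (adjusted p = 0.00686, or 0.377 and not called with a pseudocount of 0.1). Its gene cluster holds near copies, among which reads may have been split. Of 17 tested transferases 7 were lower in both sets (41.2%, against 22.6% of all tested genes) and 2 higher (11.8%, against 28.7%). In set 1 there were 5 called lower, where 6.53% of all tested genes were. In set 2 there were 2 of 17 called lower and 2 higher, against 12.6% and 25.2% of all genes. GstD10, for example, changed by -1.23 in set 1 and -0.04 in set 2.

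Dcr-2 (CG6493), the Dicer that cuts long double-stranded RNA, fell in the line that carries it as a transgene. Its values were 60.7, 53.9 and 50.3 FPKM against 19.7, 19.6 and 17.6 in set 1, and 81.0, 75.4 and 66.7 against 14.1, 19.7 and 26.6 in set 2. Every high-sugar library was below every control library, with changes of -1.49 ± 0.19 and -1.87 ± 0.19 (adjusted p = 0.00195). Transgene and resident gene cannot be told apart in this row. Cg25C, the collagen gene after which the cg driver is named, changed by -0.12 in set 1 (not called) and 0.83 in set 2 (called). Driver activity was not tested.

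The other consistent falls came from several kinds of enzyme. CG6870, a cytochrome b5-like protein, went from 63.3, 42.1 and 56.1 FPKM to 19.5, 27.0 and 27.3 and from 36.3, 30.4 and 31.6 to 13.3, 13.5 and 13.4. CG10962, a short-chain dehydrogenase by family, went from 17.3, 19.6 and 25.0 to 8.22, 11.0 and 7.65 FPKM and from 25.5, 18.8 and 20.6 to 9.26, 11.9 and 8.68. Both separated the diets in all 12 libraries, and the changes of CG10962 in the sets, -1.12 ± 0.19 and -1.05 ± 0.19, were within 1 SE of each other. Sodh-1 (CG1982) is a sorbitol dehydrogenase, which converts sorbitol to fructose. It had 2.49, 3.68 and 3.91 FPKM against 0.603, 0.775 and 0.474 in set 1 and 2.87, 2.15 and 2.97 against 1.04, 1.27 and 1.00 in set 2. It was the only consistent gene whose change was significantly larger in set 1 (-1.42 ± 0.14 against -0.79 ± 0.14).

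CG32335 (meep) fell to near 0. It measured 4.31, 4.73 and 5.86 FPKM on control diet and 0.276, 0.564 and 0.209 on high sugar in set 1, and 6.19, 4.21 and 4.27 against 0, 0.208 and 0.182 in set 2. No high-sugar library exceeded 0.564 FPKM and no control was under 4.21, with changes of -2.15 ± 0.16 and -2.37 ± 0.16 (adjusted p = 6.89e-05). Kaz1-ORFB (CG1220), a protein of the Kazal type of protease inhibitor, changed by -1.32 ± 0.24 and -1.40 ± 0.24, CG9486 (AANATL2), of the arylalkylamine N-acetyltransferase family, by -0.81 ± 0.12 and -1.43 ± 0.12, and CG11241 by -0.69 ± 0.10 and -0.90 ± 0.10. A predicted gene without a CG number, listed at 0 in 4 of 6 high-sugar libraries and between 2.01 and 3.49 FPKM on control diet, completes the 12. Srx, CG6870, Kaz1-ORFB, CG9486, CG11241 and Dcr-2 overlap other listed genes.

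**Figure D3:**
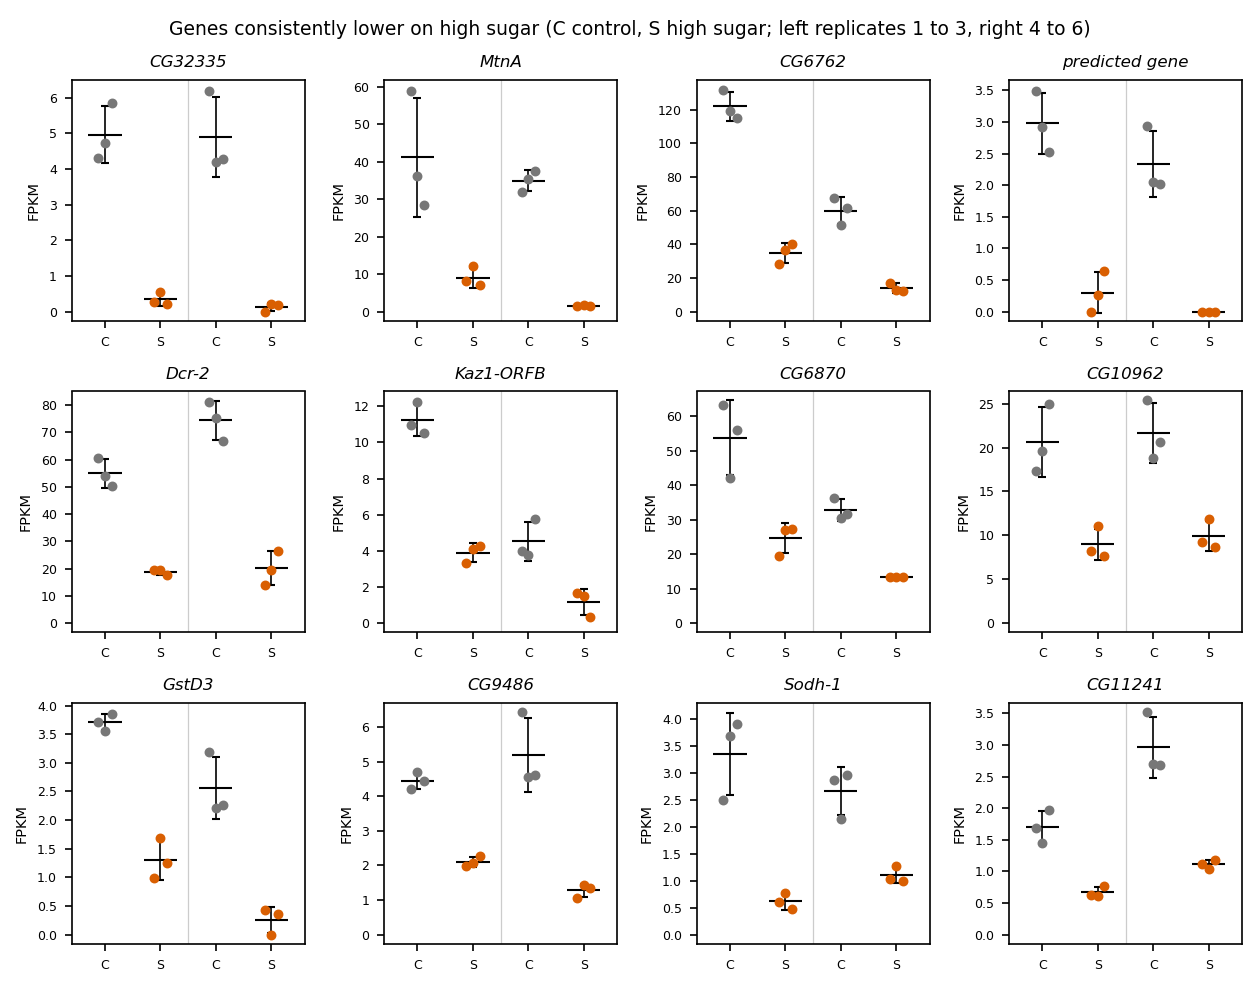
Values in FPKM of the 12 consistent falls in each library, with the mean (line) and SD (bar) of the 3 libraries per diet and set; C is control and S high sugar, replicates 1 to 3 left and 4 to 6 right of the grey line. Within each set no high-sugar library reaches a control library, and CG32335 and the predicted gene lie at or near 0 on high sugar.

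Genes called in each set by itself, though not by the stricter rule, extended these groups. CG14375 (CCHa2), a peptide hormone of the fat body that signals nutrient state to insulin-producing cells, had 5.44, 4.45 and 4.29 FPKM against 9.50, 6.27 and 7.10 in set 1 and 3.18, 2.97 and 2.19 against 9.80, 10.2 and 9.59 in set 2. Its diets did not overlap in either set, and the changes were 0.58 ± 0.15 and 1.53 ± 0.15. dmondo rose by 0.46 and 0.56 (± 0.10 in each set) and Tim8, a chaperone of mitochondrial protein import, by 0.67 and 0.73. CG4802 (Mtap) and CG11334, enzymes of methionine salvage, rose by 0.42 and 1.33 and by 0.62 and 0.98. Others that rose were the cysteine protease inhibitor Cys, the cyclophilin CG2852, the adhesion protein mfas, the nuclease Tudor-SN and the aminopeptidase ApepP.

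Falls of this tier included a pair of enzymes of amino acid metabolism. Eip55E (Cth), cystathionine gamma-lyase, which makes cysteine, went from 18.2, 18.9 and 17 FPKM to 7.33, 7.69 and 6.15 in set 1 and from 17.3, 14.8 and 15.6 to 12, 8.84 and 9.39 in set 2. The mitochondrial aspartate aminotransferase Got2 had 12.6, 13.4 and 17.8 against 5.71, 6.18 and 5.89 FPKM and then 15.7, 13.4 and 11.0 against 8.85, 8.61 and 7.79. In both genes the diets did not overlap. The change of Eip55E was larger in set 1 (-1.24 against -0.62). For Got2 (-1.16 against -0.60) the difference between sets was not called (limma adjusted p = 0.0734). Of 22 tested genes of amino acid metabolism 11 were lower in both sets (50%, against 22.6% of all tested genes) and 5 higher, with medians of -0.55 and -0.07. The serine hydroxymethyltransferase CG3011 (Shmt) had values of -0.72 and -0.85 and was called in set 2 alone; glutamate dehydrogenase (Gdh), at -1.16 and -0.28, was called in set 1 alone.

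Further falls in each set came from Inos, the first enzyme of inositol synthesis, at 0.971 to 1.34 FPKM against 0.285 to 0.640 in set 1 and 2.16 to 2.66 against 0.246 to 0.512 in set 2. ade3 (Gart), an enzyme of purine synthesis, fell by 1.14 and 0.82 and CG7280 (shop), a sulfite oxidase, by 0.71 and 0.63 on the log2 scale. Lysosomal genes were represented by Npc2a, a sterol carrier (-0.91 and -0.44), and CG5322 (LManI), an alpha-mannosidase (-0.77 and -0.80). Proteins of membranes and cell contacts that fell were the claudin kune (CG1298), the Ly6 proteins crok (CG17218) and cold (CG2813), the immunoglobulin protein Ama, the mucin-like vsg and the transporter CG4484 (Slc45-1). Of the 2 weakest consistent calls, CG15553 and CG15019 had adjusted p-values of 0.0473 and 0.0346; the nearest genes outside, CG4325 and Eip55E, both stood at 0.0562.

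**Figure D4:**
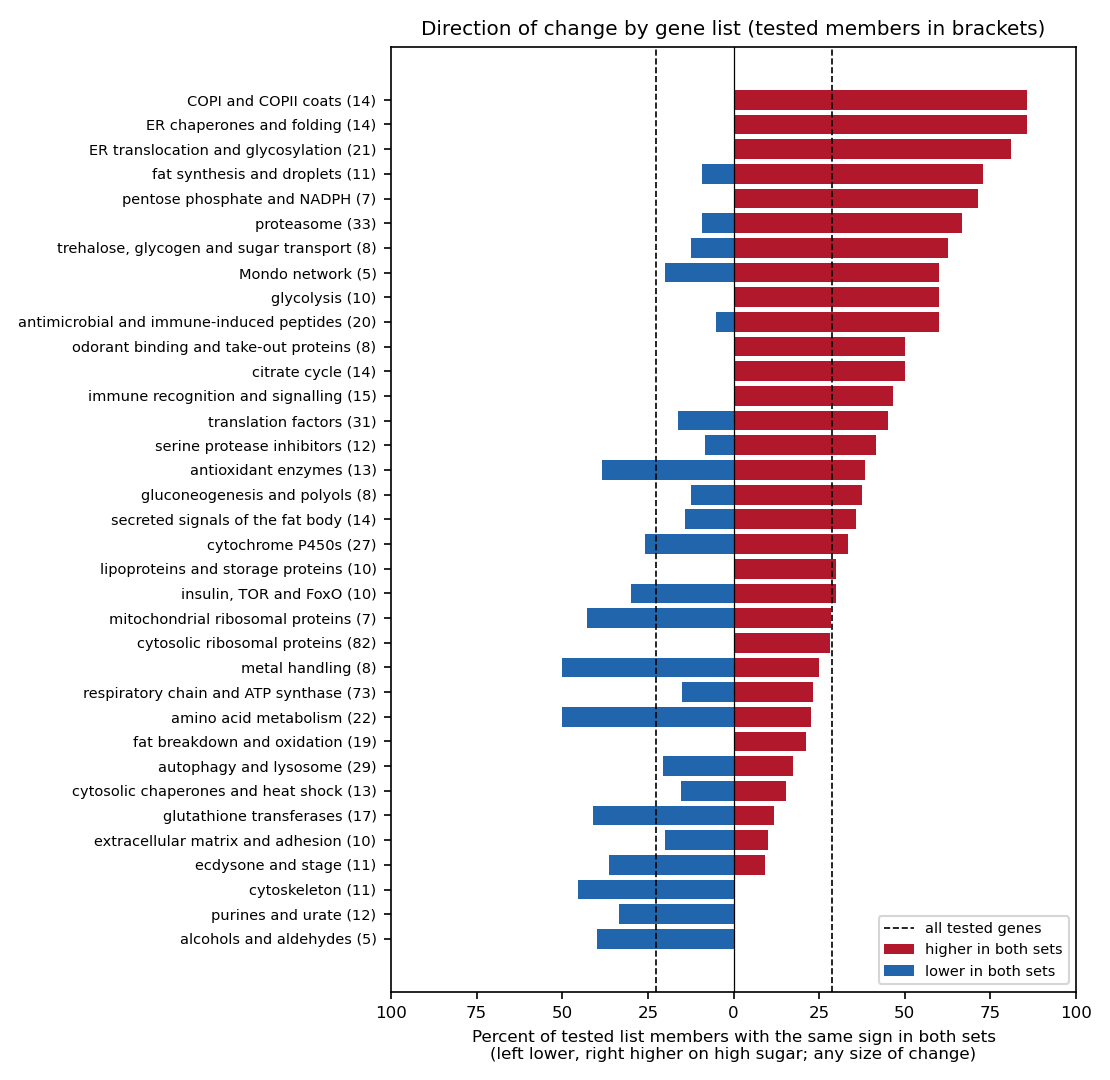
Percent of the tested members of each gene list that were higher (right) or lower (left) on high sugar in both sets at any size of change; the numbers in brackets are tested members and dashed lines mark all tested genes (28.7% higher, 22.6% lower). The lists of the secretory route reach 81% to 85.7% higher with no member lower in both sets, and amino acid metabolism has 50% lower.

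Some large families did not answer alike in the 2 sets. Of 82 cytosolic ribosomal proteins 23 were higher in both sets (28%, near the 28.7% of all tested genes) and none lower (against 22.6%). The medians were -0.14 in set 1 and 0.36 in set 2, and with quantile-normalized libraries 27 were higher and 23 lower. RpLP2, at 183, 236 and 231 FPKM against 160, 140 and 144 in set 1 and 162, 135 and 156 against 233, 228 and 198 in set 2, was called lower in the first and higher in the second. In all, 24 genes (1.04%) were called in opposite directions. Among those averaging at least 5 FPKM, Fst (frost), known from recovery after cold, had the largest difference between sets, from 12.5, 9.28 and 14.9 FPKM up to 22, 31.5 and 21.7 in set 1 and from 37.0, 33.4 and 39.2 down to 8.48, 8.41 and 12.5 in set 2. CG13905 and CG15155 were also higher in set 1 and lower in set 2, whereas Idgf3, an imaginal disc growth factor, Npc2g, Obp99c and RpS14a were lower in set 1 and higher in set 2. The 20 tested antimicrobial and immune-induced peptides had medians of 0.11 and 1.71. Of these 12 were higher in both sets (60%, against 28.7%) and 1 lower (5%, against 22.6%). In set 2 there were 6 called higher and 1 lower, against 25.2% and 12.6% of all tested genes. None was called in set 1, against 2.57% higher and 6.53% lower.

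The knockdown larvae gave a reading of the diet change in libraries that the choice of genes had not used. The target dmondo was at 0.310, 0.535 and 0.471 FPKM in the knockdown on control diet and 0.286 and 0.187 on high sugar, under every wild-type library (1.1 to 3.01). Across all tested genes 687 were called higher (29.9%) and 801 lower (34.9%) on high sugar in the knockdown. Of the 14 consistent rises 9 were called higher there, 2 lower and 3 not called. The 9 include both CG31775 and CG42586, whose values are not independent. Of the 12 falls 10 were called lower and 2 not called. CG3348 (2.91 ± 0.29), CG31775 (2.99 ± 0.31), CG5773 (2.22 ± 0.20), Cyp4d1 (1.97 ± 0.25) and Crc (1.23 ± 0.25) were among those higher in the knockdown. Cyp4p1 and CG15553 were called in the opposite direction, at -0.65 ± 0.20 (limma adjusted p = 0.0101) and -0.55 ± 0.19 (adjusted p = 0.0171), and CG3036 (-0.20 ± 0.17) and Cyp310a1 (-0.01 ± 0.10) were not called. Among the falls, Srx (-2.23 ± 0.19) and CG32335 (-1.72 ± 0.22) were lower again, MtnA changed by -0.99 ± 0.35 (adjusted p = 0.0211), and CG10962 (0.46 ± 0.25) and CG9486 (0.30 ± 0.24) were not called. Dcr-2 fell by 4.90 ± 0.20, more than any other consistent gene there, from 129, 120.1 and 146 FPKM on control diet to 3.72 and 3.14 on high sugar. Whether the change of a gene differed between genotypes was not tested.

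**Figure D5:**
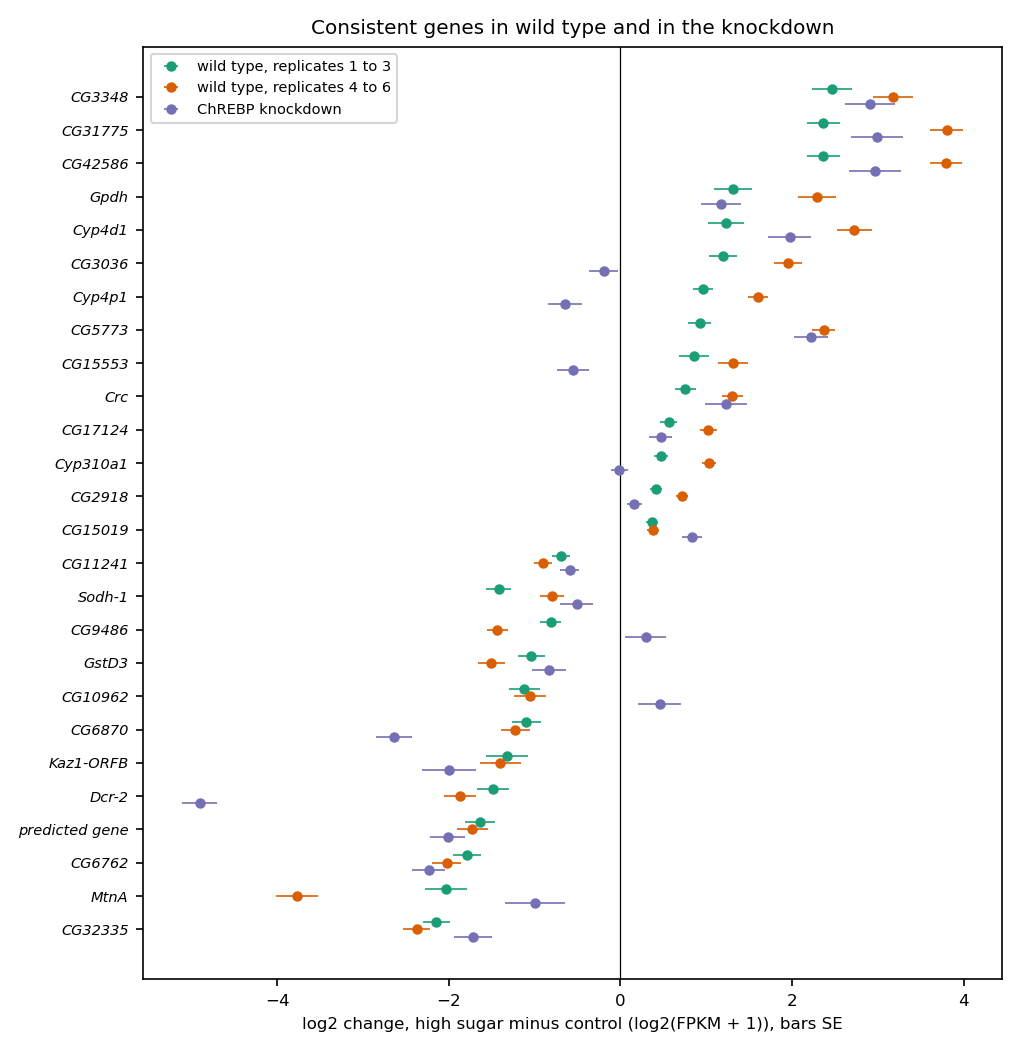
Log2 change from control to high sugar (log2(FPKM + 1)) with its SE for the 26 consistent genes in wild-type replicates 1 to 3, wild-type replicates 4 to 6 and the ChREBP knockdown (3 control and 2 high-sugar libraries). The knockdown has the sign of wild type for 10 of 14 rises and 10 of 12 falls. CG31775 and CG42586 are both counted, though their values are not independent. Cyp4p1, CG15553, CG3036 and Cyp310a1 lie below 0 and CG10962 and CG9486 above 0 only in the knockdown.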

How the data were processed

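The deposited matrix names no unit in its header; FPKM was inferred as the unit of the deposited values because the submitters' processing notes list Bowtie 0.12.7, TopHat 1.3.2 and Cufflinks 1.1.0 and build dm3. Annotation, strand setting and further scaling are not given in the sources used here. Counts were not used, so read depth is unknown and no counting interval is given. Members and gene lists were chosen with earlier results of these data known.

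Values were here transformed as log2(FPKM + 1). The 2297 of 14659 genes whose mean over the 12 wild-type libraries reached 1 FPKM were fitted with limma 3.58.1 in R 4.3.3 (trended, robust empirical Bayes) with a mean for each diet and barcode set. Tests were 2-sided with Benjamini-Hochberg adjustment over all tested genes. The knockdown contrast came from a fit of all 17 libraries. On simulated data 82% of 200 genes changed by 1 log2 unit in both sets were recovered, 2 of 200 changed in set 2 alone were called consistent, and 0 unchanged genes were. Noise was normal and drawn independently for each gene and library. Effects shared between genes were not simulated, so these rates do not cover them. At an unadjusted larger p under 0.05, 175 genes passed. Overlaps and current symbols came from RefSeq release 6, and 13055 rows matched; no coordinates or sequences were used.

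Named genes are the consistent genes averaging 5 FPKM or more with no overlap between diets in either set; up to 4 members per list with the smallest larger p; genes with the largest opposite changes; Dcr-2 and dmondo; and those next to the threshold. The other consistent genes, the other genes called in each set, Cg25C, Gdh, Cyp12e1, the ferritins and GstD10 were named after their values were seen.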

Additional observations from a re-analysis of the deposited data

Results flagged for a closer look

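One library stood far from the other 5 of its diet in 8 of 212 groups examined, where chance flags about 1 in 20. These were CG9486 in control replicate 4 (6.43 FPKM), desat1 in high-sugar replicate 3 (13.8 FPKM), the ferritin gene Fer1HCH in control replicate 3 (25.5 FPKM) and high-sugar replicate 3 (29.1 FPKM), Lsd-1 in high-sugar replicate 4 (64.1 FPKM), MtnA in control replicate 1 (58.9 FPKM), the summed hemocyte markers in control replicate 2 (334 FPKM) and the summed gonad markers in high-sugar replicate 2 (2.40 FPKM).

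For 39 named genes the diet change differed between the sets by limma's test of the difference itself (adjusted p under 0.05). Of all 2297 tested genes 592 (25.8%) did. The genes called in opposite directions were picked for their difference between sets, so their place here follows from that choice. Values are the log2 change in replicates 4 to 6 minus that in replicates 1 to 3. Rises that were larger in replicates 4 to 6 were Cyp4d1 (1.50), CG5773 (1.45), CG31775 (1.44), CG42586 (1.43), Gpdh (0.97), CG3036 (0.76), Cyp4p1 (0.64), Cyp310a1 (0.56), Crc (0.55) and CG17124 (0.46). The same held for CG8157 (0.96), CCHa2 (CG14375, 0.95), CG3625 (0.94), Gp93 (0.91), Mtap (CG4802, 0.91), Lsd-1 (0.89) and the cyclophilin CG2852 (0.60). Falls that were larger in replicates 4 to 6 were MtnA (-1.74), Cyp12a4 (-1.12), Inos (-0.80) and CG9486 (-0.62), while the falls of Sodh-1 (0.63) and Eip55E (0.63) were larger in replicates 1 to 3. Of the genes called in opposite directions, Fst (-2.79), CG15155 (-2.26) and CG13905 (-1.47) were higher in replicates 1 to 3, and Npc2g (1.48), Obp99c (1.22), Idgf3 (1.08), RpS14a (1.08) and RpLP2 (1.07) in replicates 4 to 6. Of other named genes, the change was more positive in replicates 4 to 6 for desat1 (1.54), GstD10 (1.19), Cyp12e1 (0.99), Sec61gamma (0.97), Cg25C (0.95) and Gdh (0.88), and more negative there for CG8193 (-2.10) and proPO-A1 (-1.95).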

How the results depend on the processing

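The 26 consistent genes numbered 13 with a minimum mean of 5 FPKM (fewer genes tested), 49 with quantile normalization, 74 with each set adjusted separately and 339 with an additive set term plus equal signs. Without single libraries there were 21 to 27, and 16 of the 26 were called in all 12 such fits; without 1 library Gpdh reached an adjusted p of 0.0684 (lost without control replicate 1 or 3 or high-sugar replicate 2), Cyp4d1 0.0659 (control 1 or 2, high sugar 1), Cyp310a1 0.0746 (control 3, high sugar 1 or 2), CG17124 0.0669 (control 3, high sugar 1 or 3), CG2918 0.0868 (control 2 or 3, high sugar 1, 2 or 3), Sodh-1 0.0998 (control 4 or 6, high sugar 4 or 6), CG10962 0.0930 (control 3, 4 or 6, high sugar 1, 4 or 6) and Kaz1-ORFB 0.0872 (control 1, 2, 3 or 6, high sugar 1 or 2). CG15019 (up to 0.165) was called in 1 of 12, without control replicate 6, and CG15553 (up to 0.182) in 1 of 12, without high-sugar replicate 3. The call was also lost for CG15019, CG15553, GstD3 and Kaz1-ORFB with a pseudocount of 0.1; for CG10962, CG15553, Cyp4d1, Gpdh, Kaz1-ORFB and Sodh-1 without a filter; for CG15019 and CG2918 with the length trend removed; for CG15019, CG9486 (0.107) and Crc (0.209) with all 17 libraries in the fit; and for CG15019 and CG15553 with plain eBayes. All 26 kept their signs in both sets under every alternative in which they were tested.

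Replicates 1 to 3 called 108 genes with a minimum mean of 5 FPKM and 102 to 205 without single libraries (118 without control replicate 1, 138 without control replicate 3, 102 and 138 without high-sugar replicates 2 and 3). Replicates 4 to 6 called 354 with that minimum, 1606 with none and 661 to 897 without single libraries. The difference between sets was called for 293, 939 and 413 to 565 genes. With quantile normalization the split of higher to lower calls was 76 to 121 in replicates 1 to 3, 454 to 352 in replicates 4 to 6 and 249 to 194 for the difference, against 429 to 163 as reported and 314 to 196 with libraries scaled to a common median; the causes were not tested. Counted as members above 1 FPKM, hemocyte markers differed by -3 (exact permutation p = 0.1) and Malpighian tubule markers by 0 (exact permutation p = 1).

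Replicate numbers are shared between diets, and no label ties them to a shared day or batch. Deviations of same-numbered libraries correlated at -0.16 to 0.23. Values this weak and mixed in sign cannot decide whether the numbers pair the samples. With a replicate block 15 genes were consistent, 14 of them among the 26; lost were CG10962, CG15019, CG15553, CG17124, CG2918, CG5773, CG6870, CG9486, Cyp310a1, Gpdh, Kaz1-ORFB and Sodh-1. Of 1676 single-gene values under alternatives 1239 kept their side of the threshold, 437 lost the call and 0 changed sign. Unknown depth limits statements on genes near 0.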

Other observations

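Gene groups outside the comparisons above also showed where the sets met or parted. Of 33 tested proteasome subunits 22 were higher on high sugar in both sets (66.7%, against 28.7% of all tested genes) and 3 lower, with medians of 0.08 and 0.14. With quantile-normalized libraries 13 were higher and 3 lower, against 687 and 593 of all 2297 genes, and the set 2 median was 0.00. The subunit Pros54 (Rpn10), a ubiquitin receptor, had values of 0.40 and 0.28. Cytosolic phosphoenolpyruvate carboxykinase (Pepck), an enzyme of gluconeogenesis, had values of 0.72 and 1.45, with no overlap between diets in either set, and was called in set 2 alone. Of 11 cytoskeleton genes none was higher in both sets (against 28.7% of all tested genes) and 5 were lower (45.5%, against 22.6%). The medians were 0.04 in set 1 and -0.68 in set 2. In set 2 there were 7 of the 11 called lower, against 12.6% of all tested genes, and none in set 1, against 6.53%.

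The hemocyte enzymes proPO-A1 and CG8193 (PPO2), which start melanin formation, had mean levels of 3.30 and 3.94 FPKM in control replicates 4 to 6 and were listed at 0 in all 3 high-sugar libraries of that set. In replicates 1 to 3 their changes were -0.13 and -0.18 and were not called.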
